A study of Mus musculus with 27 samples.

Results

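Autosomal protein-coding genes whose RNA came mainly from one parental allele were examined in TX1072, a female mouse embryonic stem cell line with one parent genome from BL/6J and one from CAST-EiJ (below, BL6 and CAST). Genes on chromosomes 1 to 15 and 17 to 19 with a mean of at least 50 allele-assigned counts per library were eligible. A gene was a member when BL6 held at most 15% or at least 85% of its allele-assigned counts pooled over all 27 libraries. This gave 206 members among 9769 eligible genes (2.11%), of 53801 genes in the table. CAST was the higher allele in 89 members and BL6 in 117. The rule also excepted 24 named imprinted genes, of which 17 were eligible, with shares of 36.3% to 75.4%, so the exception removed none. Members were thus chosen by their pooled BL6 share, and all shares below are descriptions without a test.

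In all groups SPEN, a corepressor recruited by Xist RNA, carried a degron through which auxin triggers its loss. One line expressed BglG-GFP (the GFP line, 4 libraries per group) and the other BglG-GFP-SPOC, with SPEN's SPOC domain added (the SPOC line, 5 libraries per group). BglG is a bacterial RNA-binding protein. Cells were untreated, were given 1 ug/mL of doxycycline during 24 h (Dox), or had auxin for 12 h before 24 h of both agents (DoxAuxin). Doxycycline switches on Xist from the BL6 X chromosome in these cells. No group received auxin alone, and each construct is represented by 1 line. The submitters speak of 4 biological replicates. The cells grew on gelatin with serum, LIF and 2 inhibitors (2i), which hold embryonic stem cells in the naive state.

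In a hybrid cell both parental alleles of a gene meet the same transcription factors. Differences in RNA between them can therefore come from sequence near the gene on the same chromosome, such as promoter, enhancer or splice-site variants, or from changes in RNA stability, and imprinting is a separate source that depends on the parent of origin. Apparent imbalance can also come from read mapping, because only reads over sites that differ between the strains can be assigned, and one strain usually serves as the reference. The deposited data do not separate these sources, and none was tested.

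Library totals lay between 28936459 and 45489094 counts, and allele-assigned counts ranged from 9911844 to 15834677 per pair of allelic columns. Over all genes BL6 held 49.4% to 49.9% of the allele-assigned counts in each pair. Allelic columns did not match the total columns that bear their names: none of the 27 pairs (0) correlated best over genes with the total of its own name, while in 27 of 27 the BL6 column matched best the CAST column of the same name. The 27 pairs matched best 27 different totals, with correlations of 0.822 to 0.922, but no column was renamed by its values. Allelic values are therefore given over 27 pairs without group labels, and no share was compared between treatments or lines. Total counts keep their labels. Xist was at 5.43 to 7.82 CPM (counts scaled to the TMM-adjusted library size) in untreated GFP cells and 747 to 918 CPM with Dox. With DoxAuxin it was at 382 to 630 CPM in GFP cells. In the SPOC line Xist was lower, at 308 to 458 CPM with Dox and 290 to 415 CPM with DoxAuxin. The part of these Xist levels in the members' responses was not tested. In untreated SPOC cells 4 libraries had at most 1.69 CPM, but replicate 2 had 178 CPM, so the counts of called members in the comparisons that use this library are also given without it. Spen RNA was higher with DoxAuxin (634 to 1164 CPM in the GFP line) than with Dox alone (178 to 214 CPM), and RNA does not check a degron that acts on protein. The 12 embryonic stem cell markers summed to 6316 to 7446 CPM, and the 10 fibroblast markers to 29.1 to 44.5 CPM, with 5 of the 10 under 1 CPM in every group.

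The shares of eligible genes centred near balance, with a median of 50.5% and quartiles of 46.5% and 54.8%, and 77.7% of genes lay between 40% and 60%. Members lay in both tails. The allele with fewer counts held under 1% in 20 members, under 5% in 65, and 10% to 15% in 80. Near the lower limit, Rab5a (14.6%), Lsm7 (14.7%) and Gng5 (14.9%) were the last members, and Mlxipl (15.4%), Rpl23a and Sirt5 (both 15.6%) the first genes left out. At the upper limit, Perp, Klk10 and Tuba1b lay just inside at 85.04%, 85.05% and 85.07%, and Glipr2 (84.9%), Lonrf2 (84.9%) and Acsf2 (84.8%) just outside. No gap separated members from their neighbours at either limit.

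**Figure D1:**
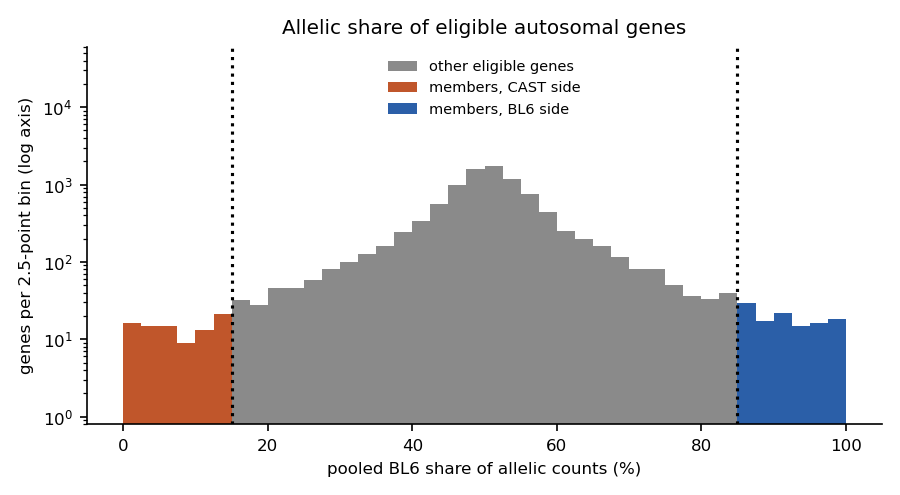
Pooled BL6 share of allele-assigned counts (x axis, percent) against the number of eligible genes per bin (y axis, log scale), with members in colour and dotted lines at 15% and 85%. Most genes sit near the median of 50.5%, and the 89 CAST-side and 117 BL6-side members fill both tails down to shares near 0% and 100%.

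The lowest BL6 shares were those of Rpl36a-ps1, Dera and Strap. Rpl36a-ps1 (chr14:98993870-98994318) had 1 BL6 count against 2739 CAST counts, or 0.036% BL6 (95% Clopper-Pearson interval 0.00092% to 0.20%). It is annotated as protein-coding in GENCODE M21, although its name marks a ribosomal protein pseudogene, and Rpl36a on the X chromosome shares a stretch of 444 bases with it at 98.2% identity, so its counts are uncertain. Dera (chr6:137754546-137857340), deoxyribose-phosphate aldolase, had 14 BL6 and 18356 CAST counts (0.076%, interval 0.042% to 0.13%), with no BL6 count in 15 of 27 pairs. Strap (chr6:137735078-137751932), a WD-repeat protein that binds TGF-beta receptors, had 121 BL6 and 126095 CAST counts (0.096%, interval 0.080% to 0.11%), and its share ran only from 0.021% to 0.17% over the pairs. Strap was also among the most deeply counted members.

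The other CAST-side extremes were Rftn1 (chr17:49992257-50190674), which encodes the lipid raft protein raftlin, at 0.11% BL6, and Ccl9 (chr11:83572919-83578636), a CC chemokine, at 0.16%. Mboat4 (chr8:34115030-34125182), the acyltransferase that modifies ghrelin, was at 0.24%. Clec4a1 (chr6:122921848-122934619), a C-type lectin, was at 0.49%, and Dok5 (chr2:170731807-170879769), a docking protein for receptor tyrosine kinases, at 0.72%. The highest single pair among these 5 genes reached 2.41%, in Clec4a1. The median pair held 0% for Rftn1, Ccl9 and Mboat4.

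On the BL6 side Gc (chr5:89417522-89457898), the plasma vitamin D binding protein, had 13826 BL6 and 9 CAST counts, or 99.9% BL6 (interval 99.88% to 99.97%), and no CAST count in 20 pairs. Clca3b (chr3:144822623-144849357), a chloride channel accessory protein, had 6528 BL6 and 5 CAST counts. Nckap1l (chr15:103453794-103498810), the blood-cell subunit of the WAVE actin regulatory complex, had 4737 and 12. These genes are best known outside the embryonic stem cell, and here they were read at 10.3 to 18.0 CPM in total. Bcl2l14 (chr6:134396318-134438736), a Bcl-2 family member, was at 99.6%, Gm8909 (chr17:36164443-36168537) at 99.5% and Lrrc31 (chr3:30679058-30699843), a leucine-rich repeat protein, at 99.4%. Rpl9-ps6 (chr19:32465865-32466578) stood at 99.6% with 14.4% of its counts assigned to an allele, and it has a near-identical copy in Rpl9 on chromosome 5. Nefm (chr14:68082590-68124846), a neurofilament subunit, was at 99.4% and its neighbour Nefl at 95.9%, but in GENCODE the gene model of Nefm spans Nefl, so part of their counts may be shared.

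**Figure D2:**
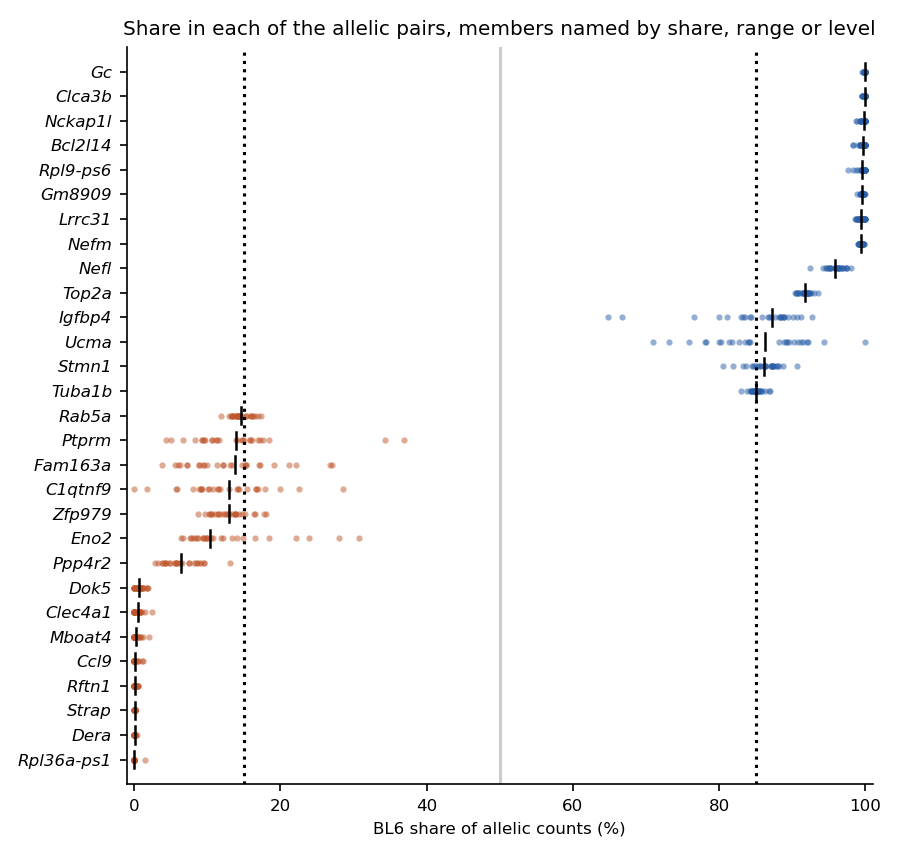
BL6 share (x axis, percent) in each of the 27 allelic pairs (points) for members named by lowest or highest share, widest or narrowest range, or highest CPM (y axis), with the pooled share as a bar and dotted lines at 15% and 85%. Strap, Dera, Gc and Clca3b vary by less than 0.5 points, whereas Ptprm runs from 4.35% to 36.8%.

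The 250 bases before the annotated start are shown for Strap and Gc, the deeply counted CAST-side extreme and the BL6-side extreme, and for Kirrel2 and Nphs1, neighbours on opposite strands with shares of 97.6% and 98.7%. They come from the RefSeq table for GRCm38.p6, are written 5′ to 3′ on the gene's strand, and carry the reference (BL6) letters only, so they show no strain difference. Capitals mark the dinucleotide CG, the site of DNA methylation, which is its own reverse complement. 
Strap (chr6:137734832-137735081, plus strand): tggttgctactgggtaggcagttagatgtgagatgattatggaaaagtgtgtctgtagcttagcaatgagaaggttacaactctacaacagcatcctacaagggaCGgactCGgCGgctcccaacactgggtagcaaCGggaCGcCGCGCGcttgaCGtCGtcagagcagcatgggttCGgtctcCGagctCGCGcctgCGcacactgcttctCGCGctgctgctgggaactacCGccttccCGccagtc
Gc (chr5:89457899-89458148, minus strand): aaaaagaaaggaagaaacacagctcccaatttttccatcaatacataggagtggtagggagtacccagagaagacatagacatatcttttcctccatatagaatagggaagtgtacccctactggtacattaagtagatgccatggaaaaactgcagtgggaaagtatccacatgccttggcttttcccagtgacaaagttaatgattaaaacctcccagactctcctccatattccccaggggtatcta
Kirrel2 (chr7:30457516-30457765, minus strand): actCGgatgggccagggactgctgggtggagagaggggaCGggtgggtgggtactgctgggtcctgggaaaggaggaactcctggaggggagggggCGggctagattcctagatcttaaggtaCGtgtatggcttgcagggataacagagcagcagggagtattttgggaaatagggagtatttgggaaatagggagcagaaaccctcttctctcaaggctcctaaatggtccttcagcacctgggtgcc
Nphs1 (chr7:30459808-30460057, plus strand): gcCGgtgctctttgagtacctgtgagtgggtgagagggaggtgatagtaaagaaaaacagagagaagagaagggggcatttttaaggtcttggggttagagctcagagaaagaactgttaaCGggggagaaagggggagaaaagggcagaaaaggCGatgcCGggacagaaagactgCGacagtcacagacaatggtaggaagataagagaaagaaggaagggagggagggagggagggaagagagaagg
The Strap window held 19 CG dinucleotides, a number reached or passed by 19.7% of the 32851 windows in the table. The Gc window held 0, whereas 92.1% of windows held 1 or more. The Kirrel2 and Nphs1 windows held 4 and 5, where the median window held 6. Of the 206 members 154 matched the table, which is fewer than 80%, and of the eligible genes 7754. Among genes that matched, the median GC content was 56.4% in members and 60.8% in eligible genes. A window was called CG-rich with GC of 50% or more and CG at 0.6 or more of the number that its C and G content predicts. Such windows were found for 57 members (37.0%) and for 68.5% of eligible genes. Genes without a match may differ, and no test was made.

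All 206 members stayed on one side of 50% in every one of the 27 pairs, 120 passed the limit in all 27, and 170 in 20 or more. The fewest for any member was 11 pairs. The widest ranges were in Ptprm, a receptor tyrosine phosphatase (4.35% to 36.8%, median 13.9%), Ucma, a cartilage matrix protein (71.0% at the lowest, median 84.2%, and no CAST count in 1 pair), and C1qtnf9, a secreted C1q-family protein (0.0% to 28.6%, median 11.4%). Igfbp4, which binds insulin-like growth factors, ranged from 64.8% to 92.7%, Eno2, the neuronal enolase, from 6.45% to 30.8%, and Fam163a from 3.80% to 27.1%. Ptprm, Ucma and C1qtnf9 were shallowly counted, at 3.54, 2.38 and 2.59 CPM, so single pairs rest on few counts.

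Other members varied between pairs by more than counting error. Over the 27 pairs the chi-square per degree of freedom, which is near 1 for pure counting error, exceeded 2 in 40 members (19.4%) and in 887 of all eligible genes (9.08%). Among those with high values were Fcgr3, an IgG Fc receptor, at 8.14 (shares of 6.91% to 13.9%), Cd276, an immune checkpoint ligand, at 7.07 (5.07% to 15.3%), and Cyp2b23, a cytochrome P450, at 6.96 (86.6% to 98.4%). These ranges did not approach balance. Whether they follow treatment or line was not tested, since the names of these columns do not hold.

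The members with the highest total CPM, a scale not adjusted for gene length, were Top2a (373 CPM), Strap (272), Zfp979 (239), Tuba1b (236), Stmn1 (140), Rab5a (139), Ppp4r2 (124) and Nefl (113). Top2a, the topoisomerase of dividing cells, had 170909 BL6 and 15354 CAST counts (91.8%), with shares of 90.4% to 93.5% over the pairs. Every pair thus lay past the limit. Tuba1b, an alpha tubulin, was at 85.1%, Rab5a, a GTPase of early endosomes, at 14.6%, and Zfp979, a zinc finger protein, at 12.9%. Stmn1, which destabilises microtubules, was at 86.1% with 7.65% of its counts assigned to an allele. Ppp4r2, a subunit of protein phosphatase 4, was at 6.37% with only 1.85% assigned. Tuba1b, Zfp979, Stmn1 and Ppp4r2 each have a near-identical copy elsewhere in the annotation.

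A near-identical copy (at least 200 aligned bases at 98% identity or more in another gene) was found for 20 of 206 members (9.71%) and for 545 of 9769 eligible genes (5.58%). It was found for 12 CAST-side and 8 BL6-side members. For Rpl36a-ps1, Crxos and Ppp4r2 the copy lay on the X chromosome. Counts of these 20 genes are uncertain, since reads may be split between copies. Mapping within copies was not tested.

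Members were counted less deeply than other eligible genes. Their median level was 12.0 CPM against 41.6 CPM over all eligible genes, or 3.2 against 8.64 CPM per kb of exon. Levels under 5 CPM were found in 20.9% of members and 6.24% of eligible genes. The share of counts that could be assigned to an allele had a median of 55.3% in members and 43.5% in eligible genes. These are differences between sets of genes in the same libraries and carry no test.

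Chromosomes held members unevenly. Members made up 4.38% of eligible genes on chromosome 14 (16 of 365) and 4.00% on chromosome 6 (19 of 475), but 0.54% on chromosome 8 (3 of 557) and 0.52% on chromosome 12 (2 of 381). On chromosome 6, 15 of the 19 lay on the CAST side, and on chromosome 4, 14 of 15 lay on the BL6 side. Most members nevertheless stood among balanced genes: the median share of the 5 nearest eligible non-members on each side was between 40% and 60% for 201 of 206 (97.6%), as for 99.02% of eligible genes. Another member lay within 1 Mb of 62 members (30.1%), and a member lay within 1 Mb of 25.5% of eligible genes.

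There were 13 pairs of members next to each other among eligible genes, and in 13 of 13 both lay on the same side. These pairs are not all separate places. Rerg, Eps8, Strap and Dera follow each other on chromosome 6, as do Nckap1l, Pde1b and Ppp1r1a on chromosome 15, and the gene models of Nefm and Nefl overlap. The lens crystallins Crygd (87.2%) and Crygc (91.1%) on chromosome 1 were one such pair, as were Top2a (91.8%) and Igfbp4 (87.3%) on chromosome 11. Nckap1l (99.7%), Pde1b (94.5%) and Ppp1r1a (91.6%) formed a run on chromosome 15, and Aqp9 (87.7%) and Aldh1a2 (91.9%) a pair on chromosome 9. In the major histocompatibility region of chromosome 17, Gm8909 (99.5%) lay next to H2-T3 (94.8%), with H2-D1 (92.8%) within 1 Mb. Kirrel2 and Nphs1, both adhesion proteins related to the kidney filtration barrier, are transcribed away from each other, with gene models 625 bases apart in GENCODE. The windows shown above precede RefSeq starts, which lie farther apart than these gene models. The Kirrel2 window ends at 30457765 and the Nphs1 window begins at 30459808. Over wider spans sides were less uniform: members within 1 Mb of each other formed 26 chains, of which 18 were one-sided.

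The longest run was on chromosome 6, where imbalance extended to genes that are not members. From Dusp16 to Dera (chr6:134715468-137857340, 3.14 Mb) 18 genes were eligible, and 16 of them had BL6 shares below 40%. The 7 members there were Cdkn1b (13.8%), the cell cycle inhibitor p27, Gprc5a (6.16%), an orphan G protein-coupled receptor, H2afj (4.16%), a histone H2A variant, Rerg (14.0%), a small GTPase, Eps8 (11.9%), an actin regulator, and Strap and Dera. Among the 11 non-members 9 were also below 40%, such as Crebl2 (17.5%), Atf7ip (21.2%) and Wbp11 (25.3%). Atf7ip had 13197 BL6 and 49137 CAST counts, and shares of 19.8% to 22.6% over the pairs.

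Single genes inside the run departed from it. Hebp1, a heme-binding protein, was at 62.6% and Arhgdib at 56.4%. Just before the run Lrp6 (53.3%) was near balance, and Bcl2l14, a member on the opposite side at 99.6%, lay 3.34 Mb before Strap. The next eligible genes after Dera, Plekha5 (45.5%) and Aebp2 (49.3%), were near balance too. They start 2.69 and 2.89 Mb after the start of Strap, so where the imbalance ends on that side is not known. In running medians over 15 consecutive eligible genes, a scan added after this region had been seen, 14 of 9517 windows fell below 30% and 0 rose above 70%. The lowest, at 21.1%, spanned Cdkn1b to Dera. The next separate windows were on chromosome 17, at 34.8% (Tulp4 to Agpat4) and 35.1% (Treml2 to Pot1b), and the highest was 65.3% on chromosome 12 (Pcnx4 to Tex21).

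**Figure D3:**
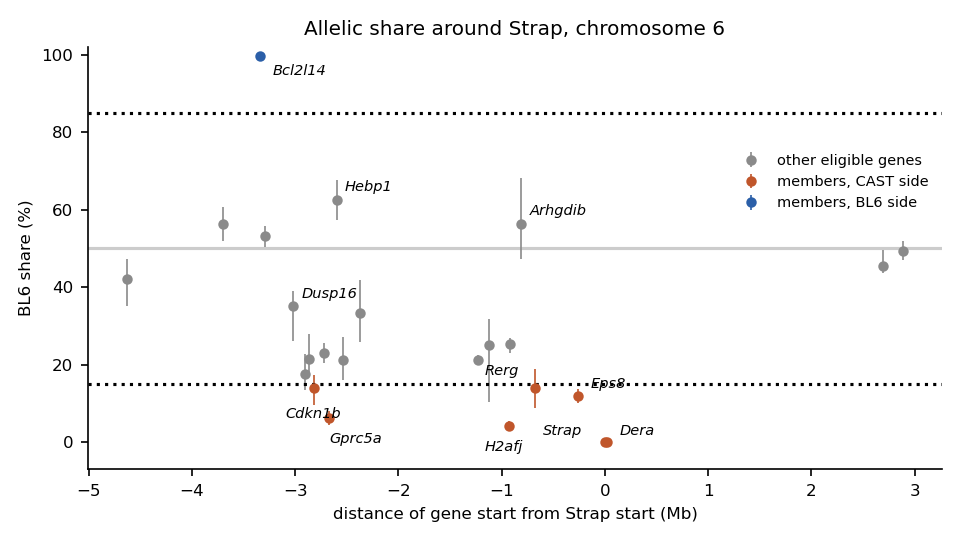
BL6 share (y axis, percent) of eligible genes by distance of their start from that of Strap (x axis, Mb) on chromosome 6, as pooled share with whiskers from the lowest to the highest of 27 allelic pairs. From Dusp16 to Dera 16 of 18 genes lie below 40%, with Hebp1 and Arhgdib above 50%, and on the flanks Lrp6, Plekha5 and Aebp2 lie near balance while Bcl2l14 is at 99.6%.

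By gene family, members were 2 of 8 eligible MHC genes, 3 of 334 zinc finger genes (Zfp366, Zfp979 and Zfp28), 4 of 153 ribosomal protein genes, 3 of 50 interferon-inducible genes (Oas1d, Trim47 and Gbp9), and 11 of 210 genes with predicted or Rik names. Of a list of imprinted genes that the rule does not except, 4 of 29 eligible ones were members: Tnfrsf23 (4.07%), Ano1 (5.44%), Inpp5f (13.7%) and Qpct (91.1%). Strain and parent of origin cannot be told apart in 1 cross. Glo1, a gene known to vary between mouse strains, was at 41.9% and was not a member. By known role, 98 members fell into 10 groups chosen after their values were seen. They ranged from 14 immune genes (5 CAST-side, 9 BL6-side) and 13 metabolic enzymes (3 and 10) to 6 germline genes (3 and 3), and neither side was missing from any group.

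Total levels of the members were next compared between treatments and lines. These comparisons use both alleles together and did not enter the rule, except that it set a minimum depth. They rest on edgeR's quasi-likelihood test over 18363 genes, with Benjamini-Hochberg adjusted p under 0.05 as a call and fold changes given as log2 ± SE. All 206 members were tested. In bulk RNA, a change in RNA per cell and a change in the share of cells cannot be told apart. A total of 154 members (74.8%) were called in at least 1 of the 5 comparisons and 52 in none, and 73.9% of eligible genes were called at least once. In all 5 comparisons 9 members (4.37%) and 1.24% of eligible genes were called. Without SPOC untreated replicate 2 these counts of members were 150 (72.8%) and 8 (3.88%), against 73.1% and 1.25% of eligible genes.

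With Dox in the GFP line Crxos, Tiam2, Kirrel2 and Bmp4 rose most among members and Otx2, Mboat4, Ucma and Alox12e fell most. Members called numbered 53 (25.7%), 28 higher and 25 lower, while 20.9% of all genes tested were called (10.1% higher, 10.8% lower) and 26.0% of eligible genes. The members' share was thus near that of eligible genes. Sums over cell type markers moved in the same comparison: the 8 primitive endoderm markers were at 143 to 171 CPM with Dox against 124 to 135 CPM untreated, the 5 neural markers at 153 to 176 against 136 to 150 CPM, and the stem cell markers at 7125 to 7318 against 6770 to 6984 CPM. Single genes made up most of the endoderm and neural sums. Averaged over all libraries, Lama1 gave 142 of the 152 CPM of the endoderm sum. Nes gave 80.2 and Tubb3 102 of the 187 CPM of the neural sum. Dab2, on the endoderm list, is itself a member. The part of these markers in the members' changes was not tested. Otx2, a homeobox factor of anterior and primed epiblast cells, was at 26.8, 32.0, 26.3 and 24.4 CPM untreated and 12.3, 14.7, 13.6 and 10.2 CPM with Dox. The groups did not overlap (−1.10 ± 0.21, adjusted p = 6e-04 in edgeR). Crxos, an oocyte and embryo homeobox gene, was at 7.78, 6.09, 7.55 and 6.63 CPM untreated and at 12.8, 11.8, 11.3 and 12.2 CPM with Dox (0.78 ± 0.10, edgeR adjusted p = 8.1e-07). Every Dox library was above every untreated one.

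Bmp4, a signalling ligand of the TGF-beta family, rose from 13.5 to 16.4 CPM untreated to 19.8 to 22.8 CPM with Dox (0.56 ± 0.11). Kirrel2 rose from 5.48 to 7.03 CPM to 8.35 to 10.7 CPM (0.63 ± 0.12), whereas its neighbour Nphs1 did not pass the test (0.04 ± 0.11). The difference between these 2 genes was not tested. Mboat4 fell from 7.68 to 10.7 CPM to 3.64 to 6.47 CPM (−0.79 ± 0.16), and Alox12e, a lipoxygenase, by 0.73 on the log2 scale (SE 0.13).

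In the SPOC line Dox raised Plet1, Bmp4, Crxos and Aqp9 most and lowered Gem, Zfp366, Otx2 and Alox12e most. Members called numbered 43 (20.9%), 29 higher and 14 lower, while 13.5% of all genes (6.16% higher, 7.33% lower) and 16.5% of eligible genes were called. Without SPOC untreated replicate 2 the count was 46, 35 higher and 11 lower. Calls among the 9769 eligible genes also rose, from 1609 to 1759. The primitive endoderm sum was at 138 to 167 CPM with Dox against 119 to 127 CPM untreated, and the sum of 6 trophoblast markers at 27.9 to 35.6 against 37.9 to 44.1 CPM. Their part was not tested. Plet1, an epithelial surface protein of trophoblast progenitors, was at 8.02, 12.4, 8.38, 10.02 and 9.99 CPM untreated and at 13.9, 15.7, 12.6, 15.97 and 17.3 CPM with Dox (0.62 ± 0.10, edgeR adjusted p = 4.6e-05). The groups did not overlap, but the lowest Dox library was only just above untreated replicate 2. Otx2 fell by 0.75 on the log2 scale (SE 0.19), from 28.5 to 37.7 CPM to 13.1 to 27.6 CPM.

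Among the members named for Dox in the SPOC line, some calls were lost without 1 library. Gem, a small GTPase, fell by 0.85 on the log2 scale (SE 0.28, edgeR adjusted p = 0.042), and lost its call without SPOC untreated replicate 1, 2, 3 or 5 or SPOC Dox replicate 1, 3, 4 or 5, with adjusted p of 0.054 to 0.098 but log2 changes of −0.89 to −0.77. It was also lost with no filter on low counts (adjusted p = 0.088). Aqp9, an aquaglyceroporin, rose by 0.50 ± 0.16, and lost its call without SPOC untreated replicate 1, 4 or 5 or SPOC Dox replicate 3 (log2 changes of 0.39 to 0.48, adjusted p of 0.078 to 0.12) or with no filter (adjusted p = 0.07). Across members the log2 changes in both lines had a Pearson correlation of 0.83 (n = 206 genes, which are not independent). Both lines called 31 members, or 58.5% of the GFP line's calls and 72.1% of the SPOC line's, and 30 of the 31 moved the same way. Over all eligible genes the shared calls were 44.7% and 70.6% of each line's, with 99.9% moving the same way. Without SPOC untreated replicate 2 both lines called 35 members, 34 of them the same way. These were 68.6% and 76.1% of each line's calls, against 49.2% and 71.2% over eligible genes.

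The exception was Id4, an inhibitor of bHLH transcription factors at 85.4% BL6. It fell with Dox in the GFP line, from 26.2, 24.7, 27.1 and 23.9 CPM to 23.3, 22.4, 22.1 and 23.4 CPM. It rose in the SPOC line, from 29.4 to 33.2 CPM to 32.4 to 38.2 CPM. The difference in response was 0.37 ± 0.08 (edgeR interaction, adjusted p = 0.020), and it was the only member among 44 genes called (0.24% of those tested, 0.229% higher and 0.0109% lower, and 0.0307% of eligible genes). It was lost without GFP untreated replicate 1 or 3 or GFP Dox replicate 2 or 3 (adjusted p of 0.053 to 0.078), and kept without SPOC untreated replicate 2 (adjusted p = 0.019).

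With auxin added to Dox, Foxd3, Tchh, Clec4a1 and Crxos fell most and Trh, Adh7, Dner and Otx2 rose most in the GFP line. Here 119 members (57.8%) were called, 53 higher and 66 lower, against 47.6% of all genes (24.7% higher, 22.9% lower) and 57.3% of eligible genes. Changes of 2-fold or more were called in 23 of 206 members, in 6.45% of all genes and in 213 of 9769 eligible genes (2.18%). The median absolute log2 change was 0.318 in members and 0.157 in eligible genes. Members also had lower levels, and the part of level in this was not tested. Foxd3, a forkhead factor of naive pluripotent and neural crest cells, fell most, from 59.2, 56.0, 58.2 and 61.1 CPM with Dox to 16.8, 16.9, 18.5 and 19.5 CPM with DoxAuxin. The groups were far apart (−1.71 ± 0.09, edgeR adjusted p = 3.8e-14). Trh, the thyrotropin-releasing hormone precursor, rose most, from 31.6, 24.9, 30.7 and 28.6 CPM to 101, 89.9, 105 and 108 CPM (1.81 ± 0.21, edgeR adjusted p = 3.3e-07).

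Tchh, the hair follicle protein trichohyalin, fell by 1.64 on the log2 scale (SE 0.13), Clec4a1 by 1.61 (SE 0.13) and Crxos by 1.53 (SE 0.11). Crxos thus moved from 11.3 to 12.8 CPM to 3.84 to 4.46 CPM. Among the rises Dner, a neuronal Notch ligand, went from 2.33 to 2.93 CPM to 5.60 to 6.68 CPM (1.25 ± 0.12). Otx2 rose from 10.2 to 14.7 CPM to 22.3 to 34.5 CPM (edgeR adjusted p = 8.9e-05), and Adh7, an alcohol dehydrogenase that acts on retinol, by 1.30 ± 0.32 from 0.71 to 1.34 CPM. Dox and DoxAuxin comparisons share the Dox libraries, so opposite signs in Otx2 and Crxos are not independent of each other. Summed levels of the 5 neural markers were also higher with DoxAuxin (226 to 241 CPM) than with Dox (153 to 176 CPM), and the 7 two-cell-like markers lower (7.07 to 8.07 against 23.1 to 33.6 CPM), with none (0) of either list at 0 throughout. The fibroblast sum was also lower, at 31.5 to 33.9 against 41.1 to 44.5 CPM, as was the stem cell sum, at 6316 to 6501 against 7125 to 7318 CPM. The trophoblast sum was higher, at 42.0 to 49.2 against 31.3 to 33.8 CPM. The part of these markers' cells in the changes was not tested.

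In the SPOC line DoxAuxin against Dox called 102 members (49.5%), 41 higher and 61 lower, against 32.0% of all genes (16.6% higher, 15.4% lower) and 39.8% of eligible genes. Changes of 2-fold or more were called in 7 of 206 members, in 2.46% of all genes and in 60 of 9769 eligible genes (0.614%). The median absolute log2 change was 0.237 in members and 0.1 in eligible genes, and the part of the members' lower levels was not tested. Trh rose again, from 43.9, 44.9, 25.4, 50.9 and 53.8 CPM to 99.2, 101, 61.9, 110 and 108 CPM (1.13 ± 0.19, edgeR adjusted p = 6.1e-05). Each DoxAuxin library exceeded each Dox library. Slco5a1, an organic anion transporter family member, rose from 7.93 to 12.4 CPM to 13.7 to 20.5 CPM (0.82 ± 0.11), and Dner by 0.80 ± 0.11. Adh7 rose by 0.74 ± 0.27, but without SPOC DoxAuxin replicate 4 the change was 0.38 (adjusted p = 0.20), and its call was also lost without SPOC Dox replicate 1, 2, 3 or 5 (adjusted p of 0.057 to 0.085). The Adh7 call was lost too with no filter on low counts (edgeR adjusted p = 0.092) and in a fit of these 2 groups alone (0.089).

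The largest falls in the SPOC line were in members whose libraries scattered widely. Igfbp4 was at 6.38, 18.9, 12.99, 14.8 and 16.5 CPM with Dox and 7.50, 4.62, 5.90, 3.42 and 3.28 CPM with DoxAuxin (−1.50 ± 0.27, edgeR adjusted p = 1.8e-04). SPOC Dox replicate 1 lay below the highest DoxAuxin library. The same library was lowest for Eno2, which was at 4.18, 19.8, 11.3, 15.2 and 16.9 CPM with Dox and 8.63, 6.26, 7.01, 1.81 and 2.17 CPM with DoxAuxin (−1.38 ± 0.42, edgeR adjusted p = 0.015). In a fit of these 2 groups alone the Eno2 change was −1.39 and missed the threshold (adjusted p = 0.081). C1qtnf9 fell by 1.39 on the log2 scale (SE 0.22) without overlap, from 2.04 to 3.86 CPM to 0.65 to 1.63 CPM. Tchh fell by 1.02 (SE 0.12). As in the GFP line, neural markers were higher with DoxAuxin (203 to 269 against 139 to 177 CPM), two-cell-like markers lower (4.76 to 5.83 against 12.4 to 21.9 CPM) and fibroblast markers at 29.1 to 36.5 against 37.4 to 43.3 CPM. Trophoblast markers were at 36.7 to 39.8 against 27.9 to 35.6 CPM and primitive endoderm markers at 167 to 189 against 138 to 167 CPM, with no overlap in either. Their part was not tested.

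Both lines called 84 members with auxin, or 70.6% of the GFP line's calls and 82.4% of the SPOC line's, and all 84 moved the same way. Over all eligible genes the shared calls were 58.4% and 84.1%, with 99.8% moving the same way. The correlation of log2 changes across members was 0.82 (n = 206 genes). The size differed for some: 22 members (10.7%) differed between lines by the edgeR interaction test, 14 with a more positive change in the SPOC line and 8 with a more negative one, against 8.14% of all genes (3.49% and 4.65%) and 9.54% of eligible genes. Foxd3 fell less in the SPOC line (−0.74 ± 0.08 against −1.71 ± 0.09, difference 0.96 ± 0.12, edgeR adjusted p = 1.2e-05). Crxos did too (−0.67 ± 0.09 against −1.53 ± 0.11, difference 0.86 ± 0.14, edgeR adjusted p = 3.3e-04). Mboat4 rose in the GFP line by 1.02 ± 0.16 and by a value that did not pass the test in the SPOC line, 0.10 ± 0.15 (difference −0.92 ± 0.22, edgeR adjusted p = 0.010).

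**Figure D4:**
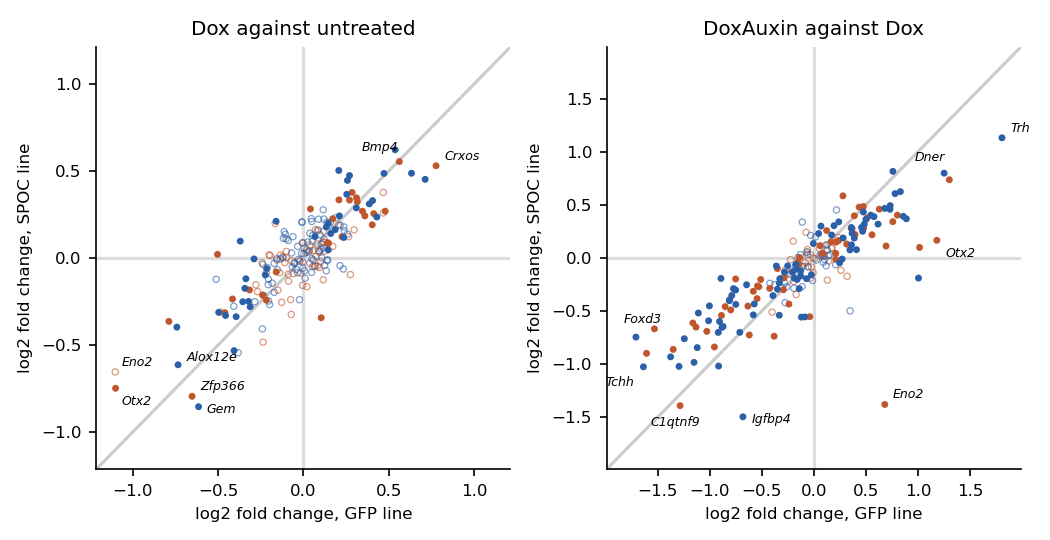
Log2 fold change of each of the 206 members in the GFP line (x axis) against the SPOC line (y axis) for Dox against untreated (left) and DoxAuxin against Dox (right), with CAST-side members in orange, BL6-side members in blue, filled points called in at least 1 line and the diagonal marking equal change. Correlations across members are 0.83 and 0.82, and Eno2 on the right has −1.38 in the SPOC line and 0.68, which did not pass the test, in the GFP line.

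Members were called on both sides of the allelic split. With Dox in the GFP line 24 of 89 CAST-side members and 29 of 117 BL6-side members were called, against 26.0% of eligible genes. With auxin the counts were 49 (55.1%) and 70 (59.8%) for GFP cells, and 40 (44.9%) and 62 (53.0%) for SPOC cells, against 57.3% (GFP) and 39.8% (SPOC) of eligible genes. The differences between sides were not tested. Strap, at the extreme of the shares, was at 253 to 303 CPM in all 27 libraries, and its largest called change was 0.12 ± 0.03 between the untreated lines (edgeR adjusted p = 0.013).

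Untreated SPOC cells differed from untreated GFP cells in 32 members (15.5%), 24 higher and 8 lower, against 11.6% of all genes (5.79% higher, 5.77% lower) and 15.6% of eligible genes. Without SPOC untreated replicate 2 the count was 28, and without GFP untreated replicate 1, 2 or 3 it was 21, 20 or 21. Without SPOC untreated replicate 3 it was 38. Shares of eligible genes in these refits are not given, so these shifts cannot be read as particular to members. Fibroblast markers summed to 35.9 to 40.8 CPM in SPOC cells against 41.9 to 42.8 CPM in GFP cells, and two-cell-like markers to 18.3 to 24.6 against 25.3 to 32.0 CPM, and their part was not tested. Construct and line cannot be told apart, since each construct is in 1 line. The crystallin neighbours were both higher in the SPOC line. Crygd was at 6.98, 5.43, 6.99 and 5.97 CPM in GFP cells and 10.5, 10.8, 19.3, 10.1 and 12.0 CPM in SPOC cells (0.98 ± 0.21, edgeR adjusted p = 0.0043). Crygc was at 1.83 to 2.20 and 2.69 to 4.55 CPM (0.80 ± 0.16). Neither gene's groups overlapped, and Crygd has a near-identical copy in Cryge.

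Fam129a, a stress-linked regulator of translation also called Niban, was lower in the SPOC line without overlap, at 58.3 to 66.5 against 42.1 to 52.6 CPM (−0.41 ± 0.07, edgeR adjusted p = 4.7e-04). Col6a1, a collagen VI chain, was higher by 0.89 ± 0.24 and Cntln, a centriole protein, by 0.72 ± 0.18. Both lost the call without 1 or more GFP untreated libraries (replicate 3 or 4 for Col6a1, replicate 1 for Cntln, adjusted p of 0.054 to 0.057). Col6a1 also lost it with no filter on low counts (edgeR adjusted p = 0.058), and Cntln in a fit of these 2 groups alone (0.059). Lrrk2, a large kinase, was lower by a log2 change of −0.36 ± 0.10, Plau, the urokinase protease, by −0.35 ± 0.10, and Tmc3, a transmembrane channel-like protein, by −0.31 ± 0.10. Each of these 3 lost its call without single libraries: GFP untreated replicate 2 or 4 for Lrrk2, replicate 4 of SPOC untreated or of GFP untreated for Plau, and 7 of the 9 libraries for Tmc3, all but SPOC untreated replicate 5 and GFP untreated replicate 3.

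**Figure D5:**
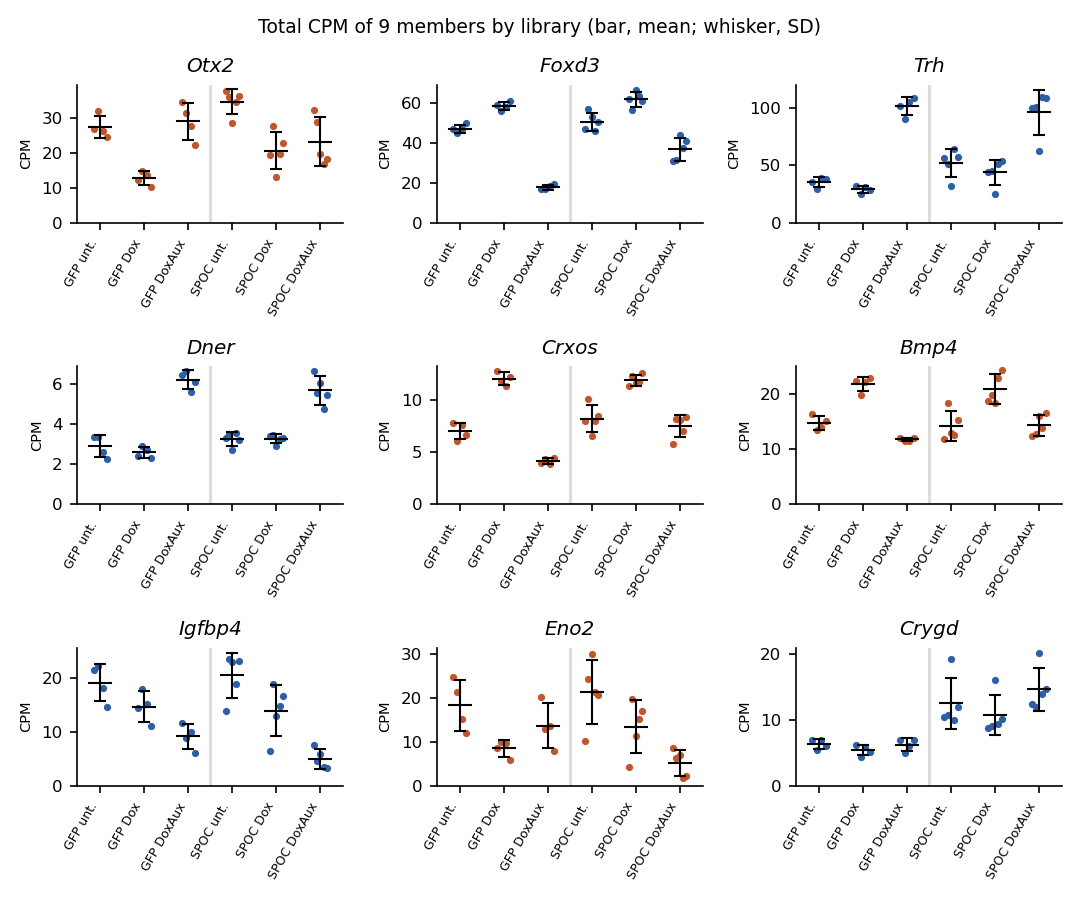
Total CPM (y axis, linear from 0) of 9 members in each library by line and treatment (x axis), with points for libraries, a bar for the mean and whiskers for the SD (n = 4 in GFP groups, n = 5 in SPOC groups). Foxd3 and Crxos are lower and Trh and Dner higher with DoxAuxin than with Dox in both lines, and Crygd is higher in the SPOC line.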

How the data were processed

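RNA was measured in 27 libraries in 6 groups. Per the submitters' processing notes, the build was mm10 and the tools named are DESeq2 1.18.1, featureCounts, Picard 2.18.2, STAR 2.5.3a and Trim Galore 0.4.4. How reads were assigned to alleles, and whether strand was used in counting, is not stated by them. Per the file headers, the deposited table holds raw counts per gene, RPKM values, and counts for each allele. The authors' RPKM were not used. GENCODE M21 (GRCm38) supplied gene symbols and coordinates and named 53620 of 53801 IDs.

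Members were found from pooled allelic counts. Intervals on shares are exact binomial and cover counting error only. Copies were sought with blastn 2.17.0 among GENCODE transcripts. Total counts passed filterByExpr, were scaled by TMM and were fitted in 1 edgeR 4.0.16 quasi-likelihood model (R 4.3.3) over all libraries. A 2-group fit of the same kind was tried on counts simulated from the GFP untreated and GFP Dox libraries. The fit over all libraries, the SPOC groups and the differences between lines were not simulated. DESeq2 1.42.0, other size factors, no filter, a replicate block, 2-group fits and leaving out libraries were alternatives. P-values measure the spread between these libraries. The planned test of shares between groups was not run because allelic column names disagreed with the totals.

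Promoter composition was described without a test, because fewer than 80% of members matched the promoter table. Members and gene lists were chosen with earlier results of these data known. The text names the 8 lowest and 8 highest shares, genes beside each limit, the 6 widest and 4 narrowest ranges, the 8 highest CPM, the 4 largest rises and 4 largest falls called in each comparison, and listed families. The chromosome 6 region, genes of high chi-square, Id4, Nphs1 and neighbouring members were chosen after their values were seen. The values of 1 gene of high chi-square are not reported here.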

Additional observations from a re-analysis of the deposited data

Results flagged for a closer look

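Among the genes named for their changes, 78 groups of libraries were screened for a library far from the others, and 5 held one, where chance alone gives about 1 in 20. Adh7 in SPOC DoxAuxin replicate 4 was at 5.59 CPM (others 1.92 to 2.67). Aqp9 in SPOC Dox replicate 3 was at 6.52 CPM (others 4.52 to 5.0). Crygd in SPOC untreated replicate 3 was at 19.3 CPM (others 10.1 to 12.0), and Tmc3 in SPOC untreated replicate 5 was at 8.12 CPM (others 6.08 to 6.55). Trh in SPOC DoxAuxin replicate 3 was at 61.9 CPM (others 99.2 to 110). Replicate 3 was also the lowest SPOC Dox library for Trh. Over genes, deviations from the group means correlated by 0.462 between the SPOC Dox and DoxAuxin libraries of replicate 3. The main fit did not pair libraries by number.

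Responses that differed between the lines by the edgeR interaction test (SPOC minus GFP, log2) were, for Dox, Id4 at 0.37 (edgeR adjusted p = 0.020). Of the 22 members called for DoxAuxin against Dox, 12 are among the genes named for shares, levels or changes. Among these the difference was positive for Foxd3 (0.96, edgeR adjusted p = 1.2e-05), Crxos (0.86, edgeR adjusted p = 3.3e-04), Clec4a1 (0.71, edgeR adjusted p = 0.0088), Tiam2 (0.70, edgeR adjusted p = 0.0085) and Tchh (0.61, edgeR adjusted p = 0.031). It was also positive for Kirrel2 (0.59, edgeR adjusted p = 0.027), Lrrk2 (0.49, edgeR adjusted p = 0.036) and Stmn1 (0.18, edgeR adjusted p = 0.029). It was negative for Eno2 (−2.06, edgeR adjusted p = 0.040), Otx2 (−1.01, edgeR adjusted p = 0.030), Mboat4 (−0.92, edgeR adjusted p = 0.010) and Rpl36a-ps1 (−0.58, edgeR adjusted p = 0.030). The other 10 were Pla2g4e (0.55), Sytl3 (0.55), Pdgfc (0.48), Mep1b (0.42), Acaa2 (0.31) and Eps8 (0.26) on the positive side, and Neil2 (−1.20), Cdhr1 (−0.47), Psma8 (−0.47) and Galnt12 (−0.29) on the negative side, with edgeR adjusted p of 0.0019 to 0.038. Among the genes named first, leaving out 1 library in turn ended the call for Id4, Eno2, Kirrel2, Lrrk2, Otx2, Rpl36a-ps1, Stmn1 and Tchh, each in several cases, and in no case for Foxd3, Crxos, Clec4a1, Tiam2 and Mboat4. Eno2, the largest difference, lost its call without any single GFP Dox library. It was also lost without GFP DoxAuxin replicate 1, 2 or 3, SPOC Dox replicate 2, 4 or 5, or SPOC DoxAuxin replicate 4 or 5. With no filter on low counts Eno2 (edgeR adjusted p = 0.074) and Otx2 (0.063) were lost too.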

How the results depend on the processing

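The replicate numbers were not used to pair the libraries in the main fit. Same-numbered deviations correlated by -0.116 to 0.462, and no comparison had every pair above 0.1. All were positive for GFP Dox (0.0194 to 0.146) and for SPOC Dox (0.0639 to 0.323), so whether the numbers pair the libraries is not settled. With a replicate block, members called rose to 94 for GFP Dox (45.6%, against 38.6% of eligible genes) and 70 for SPOC Dox (34.0% against 28.8%). Members differing between lines in the auxin response rose to 37 (18.0% against 17.4%). GFP auxin gave 145 (70.4% against 64.5%) and SPOC auxin 128 (62.1% against 50.3%). The untreated lines gave 45 (21.8% against 20.7%) and the Dox difference 1 (0.485% against 0.379%). With the block the SPOC auxin change of Eno2 (edgeR adjusted p = 0.07) and the SPOC Dox change of Gem (0.087) were no longer called. With limits of 10% and 90% the members numbered 126, of which 34, 68, 24 and 55 were called for GFP Dox, GFP auxin, SPOC Dox and SPOC auxin. Of eligible genes 26.0%, 57.3%, 16.5% and 39.8% were called in these comparisons. Of the 126, 0 and 14 differed between lines in the Dox and auxin responses, against 0.0307% and 9.54% of eligible genes. Limits of 20% and 80% gave 339 members, a mean of 20 counts gave 318, a mean of 100 counts 153, and leaving out 1 allelic pair 203 to 206. Leaving out 1 library gave 39 to 51, 110 to 123, 33 to 46, 92 to 105 and 20 to 38 members called for GFP Dox, GFP auxin, SPOC Dox, SPOC auxin and the untreated lines, and 0 to 1 and 14 to 29 for the line differences in Dox and auxin response (14 without GFP DoxAuxin replicate 1). Shares of eligible genes are not given for most of these refits, so the ranges cannot be read as particular to members. DESeq2 size factors, DESeq2's Wald test, no filter, 2-group fits and leaving out members with copies kept all counts within 1.5 times. Of 53 gene-level results none (0) reversed under 882 alternatives, and 17 lost a call in 97 of them. For genes under 5 CPM and for shares with few assigned counts, depth limits the precision.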
